A study of Mus musculus with 11 samples.

Results

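The cell-cycle engine, replication and mitosis genes described here are 58 mouse genes that carry a cell through division. They are the cyclins and their kinases (CDKs), the CDC25 phosphatases, the pocket proteins, the E2F, FOXM1 and MYBL2 factors, and the genes of origin licensing, DNA synthesis and mitosis. They were taken by gene name, and all 58 were listed in both deposited tables. These hold 31518 genes for mouse embryonic stem cells (mESCs) and 29450 genes for mouse embryonic fibroblasts (MEFs), with 26398 in both. Poly(A)+ RNA was sequenced from wild-type (WT, Atxn7l3+/+) and Atxn7l3-/- cells of each type. This puts the question of which transcripts differ when cells lack ATXN7L3, an adaptor of the SAGA histone H2B deubiquitylation module. The authors describe it also as a partner of the related deubiquitylases USP27X and USP51, outside SAGA. The 11 libraries were 2 WT and 3 Atxn7l3-/- mESC libraries, and 3 WT and 3 Atxn7l3-/- MEF libraries. A further WT mESC dataset that the authors set aside was not analysed here. Total counts ran from 34515342 to 49602605 per library, so that the floor of 3 counts stood at 0.0605 to 0.0869 counts per 1e6, a limit that covers counting error only.

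All 4 groups were of DBA/2 x C57BL/6 strain with no treatment, and both Atxn7l3-/- groups carried the null allele in the whole animal, so no cell type or time of loss was chosen. The mESCs were lines that each came from 1 blastocyst. They were passaged on feeder cells, then without them, with LIF, 15% serum, 1 µM PD0325901 and 3 µM CH99021. PD0325901 blocks MEK and CH99021 blocks GSK3, so the mESCs were studied under inhibitors of pathways that act on D cyclins. The MEFs were grown in 10% serum from E10.5 embryos whose head and gut had been cut away, with no sort for fibroblasts, so other cells of the embryo could be carried along.

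Cyclins appear and vanish in turn and switch on their CDKs: D cyclins with CDK4 or CDK6, then E cyclins with CDK2, phosphorylate the pocket proteins and free E2F factors to transcribe replication genes, before cyclins A and B with CDK1 drive mitosis. Genes that peak late in the cycle are read through FOXM1, MYBL2 and the MuvB complex, which joins pocket proteins and E2F in the DREAM repressor of resting cells. Pluripotent mESCs are known for a short gap before replication and for low D cyclin levels, whereas fibroblasts rely on D cyclins and pocket proteins to respond to serum.

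Atxn7l3 (ENSMUSG00000059995), the targeted gene, stood at 222 and 223 TMM-normalized counts per 1e6 counts (CPM) in the WT mESCs and at 3.91, 1.79 and 0.976 CPM in the Atxn7l3-/- mESCs. Both WT libraries were far above all 3 Atxn7l3-/- libraries (log2 difference −6.65 ± 0.53 SE, edgeR quasi-likelihood adjusted p = 0.0211). In the MEFs Atxn7l3 was at 79.7, 104 and 92.9 CPM with the WT label and at 49.2, 49.5 and 67.3 CPM with the Atxn7l3-/- label. The MEF groups did not overlap, but the libraries labelled Atxn7l3-/- kept most of the reads and the difference missed the threshold (−0.74 ± 0.21, adjusted p = 0.0715), so every MEF direction given here is that of the label. Counts per gene do not show where on Atxn7l3 these reads align. The authors reported ATXN7L3 protein as undetectable in the Atxn7l3-/- cells of both types.

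The cell type labels were checked against marker lists. The 7 pluripotency markers summed to 4015 and 4643 CPM in the WT mESCs and to 3764, 3978 and 4025 CPM in the Atxn7l3-/- mESCs, with Pou5f1 between 896 and 1373 CPM in the 5 libraries. Sox2 was at 255 and 301 CPM in the WT mESCs and at 154, 212 and 171 CPM in the Atxn7l3-/- mESCs. Klf4 was at 229 and 248 against 149, 212 and 132 CPM, and Zfp42 at 189 and 108 against 73.6, 103 and 75.9 CPM. These genes lay below WT in every Atxn7l3-/- mESC library, Pou5f1, Nanog, Esrrb and Tfcp2l1 overlapped, and edgeR called 0 of the 7. In the MEF table Pou5f1 and Zfp42 are not listed, Nanog stayed under 1 CPM in every library, and Col1a1, a fibroblast collagen, lay between 2182 and 12698 CPM. The fibroblast transcription factor Prrx1 was at 429, 511 and 433 CPM in the WT MEFs and at 24.3, 5.50 and 312 CPM in the libraries labelled Atxn7l3-/-. The 8 fibroblast markers together summed to 6911, 37632 and 13704 CPM in the WT MEFs and to 14622, 16084 and 22360 CPM in those labelled Atxn7l3-/-. Pdgfrb, a receptor of fibroblasts and pericytes, was at 193, 428 and 317 CPM against 23.7, 1.82 and 255 CPM, so Atxn7l3-/- replicates 1 and 2 were low for both genes. Of the pluripotency list, Tfcp2l1 was at 1.15, 1.39 and 0.96 CPM in the WT MEFs and at 65.4, 53.9 and 25.0 CPM in those labelled Atxn7l3-/-, and was called higher (5.36 ± 0.46, adjusted p = 0.00591). Sox2 was at 44.0, 3.96 and 18.8 CPM against 5.89, 0 and 0.522 CPM, and was called lower by edgeR with the replicate block and not without it.

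All 58 genes were expressed in both cell types. Levels of different genes are compared only per length, as the deposited normalized reads per kilobase of median annotated transcript length; each table was normalized on its own, so levels set across the tables are side by side only. Every member had a median above 10 reads per kb in both tables, and the median over the members was 3322 reads per kb in mESCs and 1917 in MEFs, beside 308 and 441 over all genes tested. The lowest count of a member in any library was 172 in mESCs and 91 in MEFs, so detection did not limit a member. By median reads per kb over the libraries of both genotypes the mESC list was led by Top2a (33704), the topoisomerase that untangles chromosomes, the helicase subunit Mcm2 (21204) and the factor Mybl2 (20474), and it ended with E2f8 (168) and E2f2 (107). In MEFs it was led by Ccnd2 (70206), which encodes cyclin D2, the ribonucleotide reductase subunit Rrm1 (18757) and Cdk4 (18216), and it ended with the licensing factor Cdc6 (172) and E2f2 (82.3). The place of Rrm1 comes from the libraries labelled Atxn7l3-/-: in the WT MEFs it was at 8881, 13379 and 10643 reads per kb, beside 25049, 9873 and 21583 for Ccnd1. The members were spread over the genome, with 10 on chromosome 2 and no more than 6 on any other chromosome.

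The main D cyclin differed between the cell types, while Cdk4 led over Cdk6 in every library. Among the D cyclins, Ccnd3 made up 76.5 ± 3.03% (SD, n = 2) of the summed reads per kb in the WT mESCs and Ccnd2 2.73 ± 0.67%, whereas in the WT MEFs Ccnd2 made up 76.4 ± 6.96% (n = 3) and Ccnd3 9.07 ± 6.67%. Ccnd1 took 20.7 ± 3.70% in the WT mESCs against 6.12 ± 1.32% (n = 3) in the Atxn7l3-/- mESCs, and 14.6 ± 1.63% in the WT MEFs against 5.62 ± 1.79% (n = 3) in those labelled Atxn7l3-/-. The share of Ccnd1 in the D cyclin reads was therefore lower with the Atxn7l3-/- label in both cell types, with no overlap between the libraries. Of the kinases that D cyclins switch on, Cdk6 made up 4.82 ± 0.82% beside Cdk4 in the WT mESCs and 2.05 ± 0.51% in the Atxn7l3-/- mESCs, but 12.9 ± 8.69% in the WT MEFs and 19.2 ± 5.70% in those labelled Atxn7l3-/-. Rb1, the retinoblastoma gene, was the largest of the pocket protein genes by the mean of every group, with 78.0 ± 7.32%, 78.2 ± 0.98%, 66.8 ± 18.8% and 54.2 ± 3.89% in the same order. In WT MEF replicate 2 Rbl2 came first, with 47.1% beside 45.2% for Rb1.

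**Figure D1:**
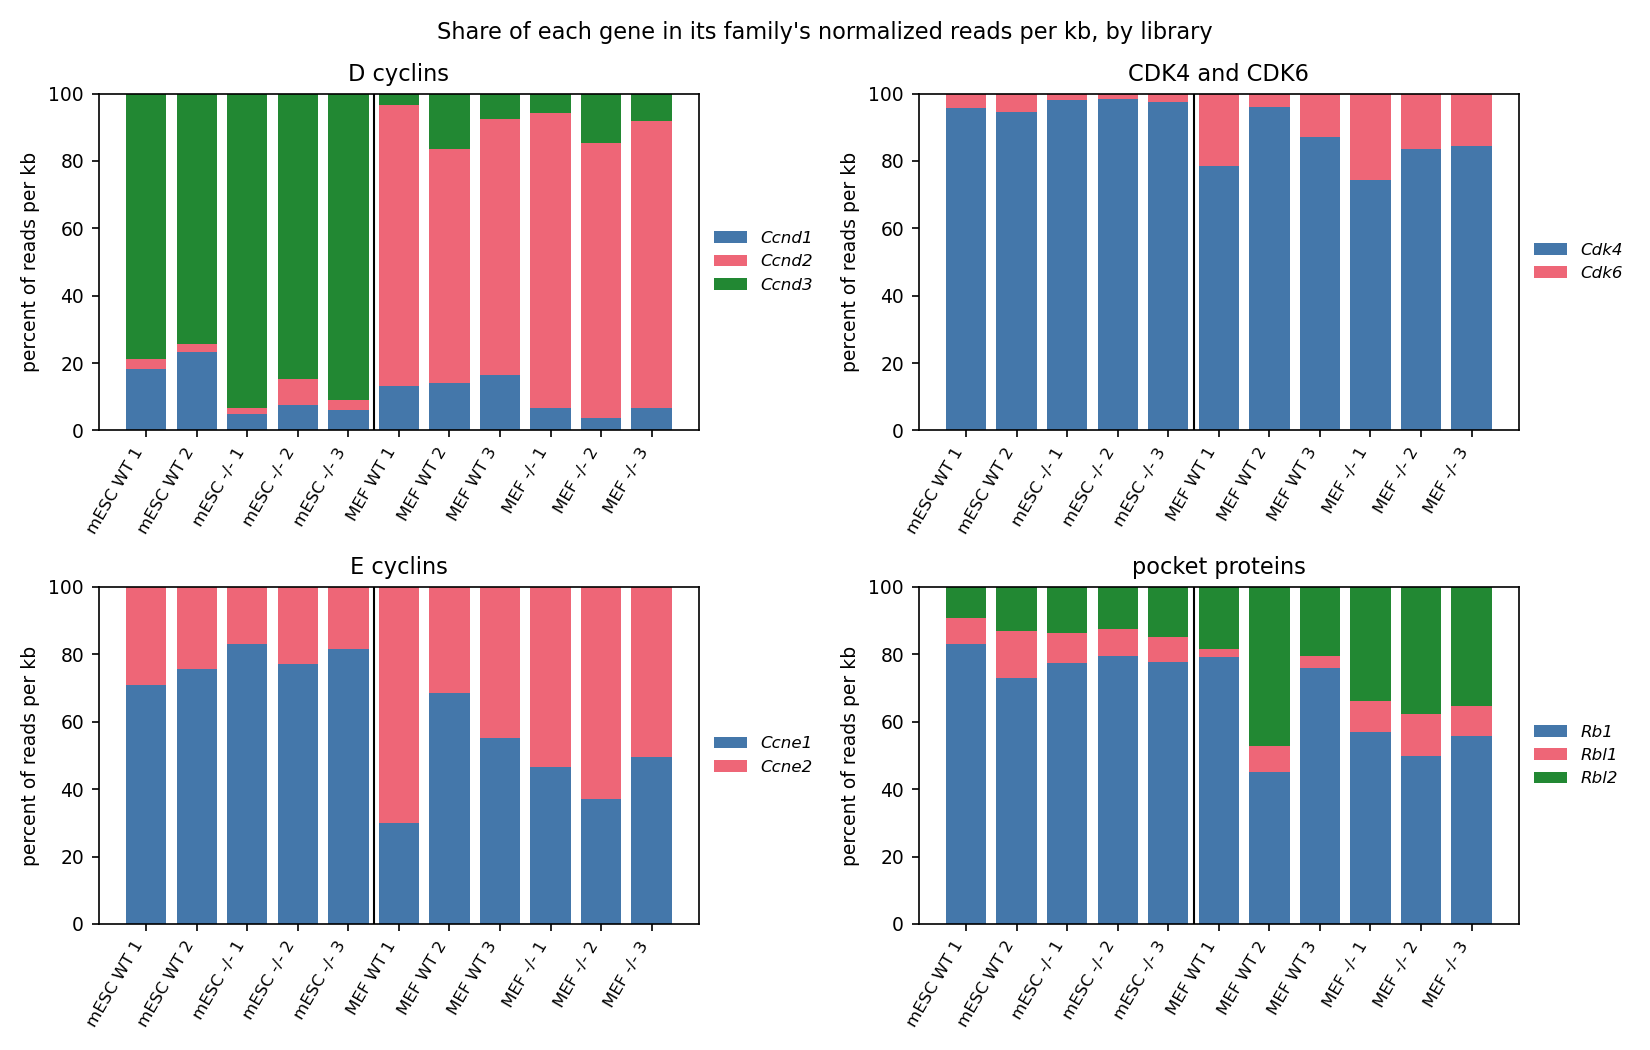
Share of each gene in the summed deposited normalized reads per kb of its family (percent, vertical axis), stacked for each of the 11 libraries, in 4 panels for D cyclins, CDK4 and CDK6, E cyclins and pocket proteins. Ccnd3 holds most of the D cyclin reads in the 5 mESC libraries and Ccnd2 in the 6 MEF libraries, and the Ccnd1 share is smaller in the Atxn7l3-/- libraries of both.

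The WT groups show the starting point on 1 common scale, TMM-normalized CPM of all 11 libraries, which cannot tell fewer dividing cells from less RNA per cell in bulk samples. In the WT MEFs 36 of the 58 members were lower than in the WT mESCs and 4 were higher (edgeR quasi-likelihood test, adjusted p of 0.05 or less), where 27.1% of the 19326 genes tested were lower and 26.8% higher. The median log2 difference of the members was −1.23, against −0.00 over all genes. All 13 genes of origin licensing and the replicative helicase were lower (median −2.20), as were 11 of 14 mitosis genes (median −1.66) and 5 of 8 genes of the E, A, B and F cyclins with CDK1 and CDK2 (median −1.32).

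The 4 members that were higher were Ccnd2, Ccnd1, Cdk6 and the pocket protein gene Rbl2. Ccnd2 stood at 5.32 and 5.56 CPM in the WT mESCs and at 3345, 1049.6 and 2141 CPM in the WT MEFs. Ccnd1, for cyclin D1, stood at 66.3 and 126 CPM in the WT mESCs and at 1167, 467 and 1014 CPM in the WT MEFs. Every WT MEF library exceeded both WT mESC libraries for these cyclins (log2 differences 8.64 ± 0.84, adjusted p = 2.7e-05, and 3.20 ± 0.64, adjusted p = 0.00195). Rbl2, for the pocket protein p130 that holds cells at rest, was at 12.2 and 13.6 CPM against 63.6, 47.4 and 42.6 CPM, again without overlap (1.99 ± 0.25, adjusted p = 0.000121). Cdk6 was at 22.3 and 42.9 CPM against 98.7, 40.0 and 92.4 CPM, so that MEF replicate 2 lay within the mESC values (1.24 ± 0.43, adjusted p = 0.0319). In a fit with the replicate as a block Cdk6 was not called. Rb1 passed in neither direction, at 50.8 and 34.5 CPM against 126, 20.8 and 72.6 CPM (0.78 ± 0.54, adjusted p = 0.241).

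Mybl2, for the late cell-cycle factor B-MYB, was the member lowest in MEFs relative to mESCs, at 439 and 480.5 CPM in the WT mESCs and 5.38, 10.6 and 11.8 CPM in the WT MEFs (−5.64 ± 0.34, adjusted p = 2.05e-06). Orc1, the largest subunit of the origin recognition complex, was at 87.6 and 122 CPM against 3.73, 7.59 and 8.13 CPM (−4.01 ± 0.38, adjusted p = 2.2e-05). Ccnf, for the ubiquitin ligase subunit cyclin F, was at 253 and 344 CPM against 19.0, 38.4 and 32.7 CPM (−3.31 ± 0.28, adjusted p = 1.29e-05). In all of these the groups lay far apart. The licensing factors Cdc6 (−2.73 ± 0.35, adjusted p = 0.000145) and Cdt1 (−2.44 ± 0.45, adjusted p = 0.00119) and the helicase subunits Mcm5 (−2.72 ± 0.33, adjusted p = 0.000102), Mcm2 (−2.55 ± 0.26, adjusted p = 3.29e-05) and Mcm3 (−2.54 ± 0.30, adjusted p = 8.42e-05) were lower in MEFs too. So were the mitotic kinases Aurka (−2.47 ± 0.36, adjusted p = 0.000319), Bub1 (−2.36 ± 0.28, adjusted p = 8.49e-05) and Plk1 (−1.22 ± 0.42, adjusted p = 0.0307), cyclin B1 (Ccnb1, −2.35 ± 0.34, adjusted p = 0.000279) and the polymerase clamp Pcna (−0.84 ± 0.27, adjusted p = 0.0218).

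Some core members did not differ by the test. Mki67, for the proliferation marker Ki-67, was at 146 and 184 CPM in the WT mESCs and at 117, 161 and 138 CPM in the WT MEFs (−0.25 ± 0.25, adjusted p = 0.431), with overlapping groups. E2f1, the activating E2F, was at 49.4 and 64.4 CPM against 41.9, 54.3 and 53.9 CPM (−0.18 ± 0.27, adjusted p = 0.58). Cdk1 (−0.88 ± 0.38, adjusted p = 0.0696) and the E cyclin Ccne1 (−1.33 ± 0.54, adjusted p = 0.0554) lay below 0 without passing. In the fit with the replicate as a block Cdk1 was called lower. Without mESC WT replicate 2 the number of members called was 26 in place of 40, all of them among the 40. Upper-quartile scaling moved the median over all genes from −0.00 to −0.12 here, from −0.06 to −0.17 between the MEF groups and from −0.09 to −0.19 in the interaction, and left the side of 0 of each member median as it was.

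**Figure D2:**
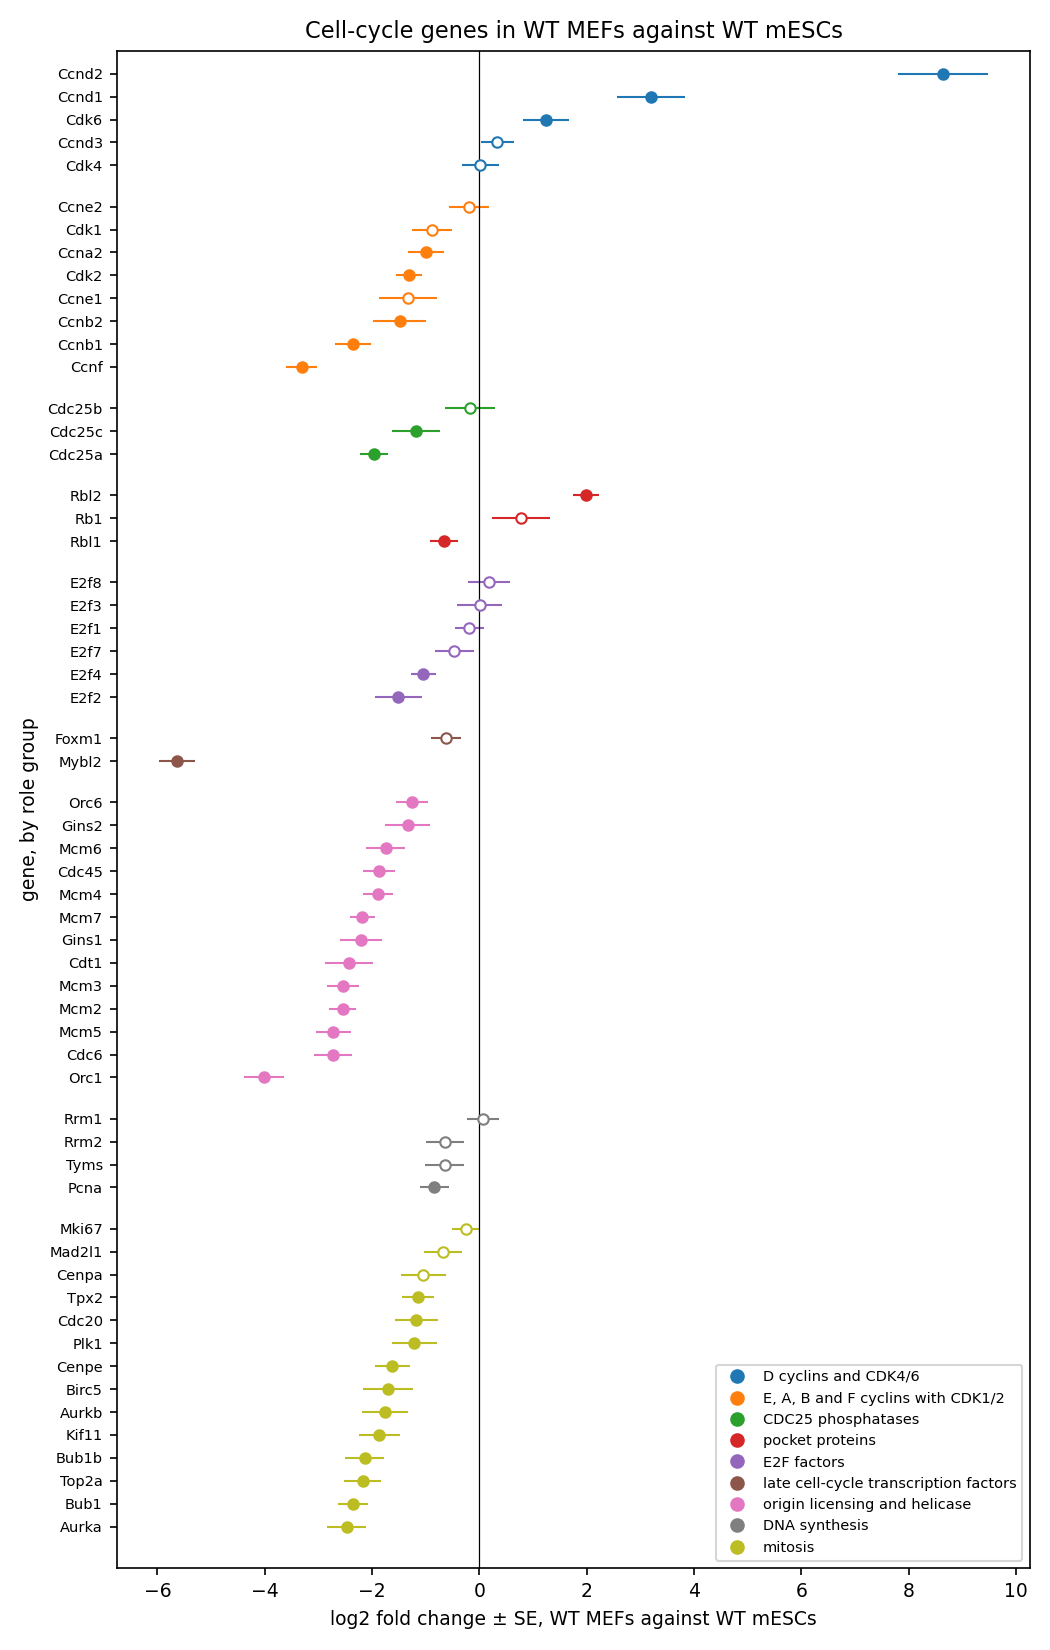
Log2 difference of WT MEFs against WT mESCs for each of the 58 members (horizontal axis), grouped by role, with bars for the SE and filled points for members called at an adjusted p of 0.05 or less. Ccnd2 at 8.64 is the farthest above 0 and Mybl2 at −5.64 the farthest below, and all 13 licensing and helicase genes lie below 0.

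The promoters of the members were searched for motifs of cell-cycle genes. RefSeq promoters on GRCm38.p6, from 250 bases before to 50 bases after each start, matched 45 of the 58. There was no entry for E2f4, Ccnd1, Ccne2, Cdc25c, Ccnd2, Rb1, Ccna2, Foxm1, Aurkb, Mcm4, Tpx2, Gins2 and Gins1. An E2F motif (TTTSSCGC with S for C or G, on either strand) stood in 14 of the 45 (31.1%), beside 2.61% of the 27025 genes with a promoter entry. It stood in 7 of 10 licensing promoters and in 0 of 12 mitosis promoters. A CHR motif (TTTGAA or TTCGAA, on either strand) stood in 20 of 45 (44.4%) beside 21.7% of genes, and in 9 of 12 mitosis promoters. CCAAT, on either strand, stood in 33 of 45 (73.3%) beside 41.1% of genes. Cdk4, Cdk6, Ccne1, E2f1, Mybl2, Tyms, Mad2l1 and Birc5 had none of these motifs. A match describes letters in this window and names no bound factor. No difference between motif sets was tested. The median log2 difference in mESCs was −0.34 with and −0.26 without an E2F motif, and in MEFs it was 0.66 and 0.46. With and without CHR the mESC medians stood at −0.36 and −0.22, the MEF medians at 0.65 and 0.49. With and without CCAAT they stood at −0.30 and −0.21, then 0.62 and 0.40.

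In the Atxn7l3-/- mESCs 4 members passed the test. Rbl2 and Rb1, which encode pocket proteins that hold E2F in check, rose, while Ccnd1 and the mitotic kinase gene Plk1 fell. They were 4 of 58, 2 higher and 2 lower (edgeR quasi-likelihood test, adjusted p of 0.05 or less over 17800 genes), where 3.08% of all genes tested were higher and 3.88% lower, so the number called is near that of genes in general. The same 4 passed the study's fold and level cuts, at least 2-fold and over 10 reads per kb, set on these edgeR values. The study itself used DESeq2. With the cuts on edgeR values 2.76% of genes passed as higher and 1.92% as lower. Of the 58 members 43 were below 0, with a median log2 difference of −0.32 beside 0.04 over all genes tested. Against the WT mean the median member stood at −0.21 in WT replicate 1 and 0.21 in WT replicate 2, and at −0.20, −0.33 and −0.28 in the Atxn7l3-/- mESCs, so WT replicate 1 sat with the Atxn7l3-/- libraries. In 26 members every Atxn7l3-/- library lay below both WT libraries and in 5 every one lay above, beside 25.1% and 24.6% of genes.

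**Figure D3:**
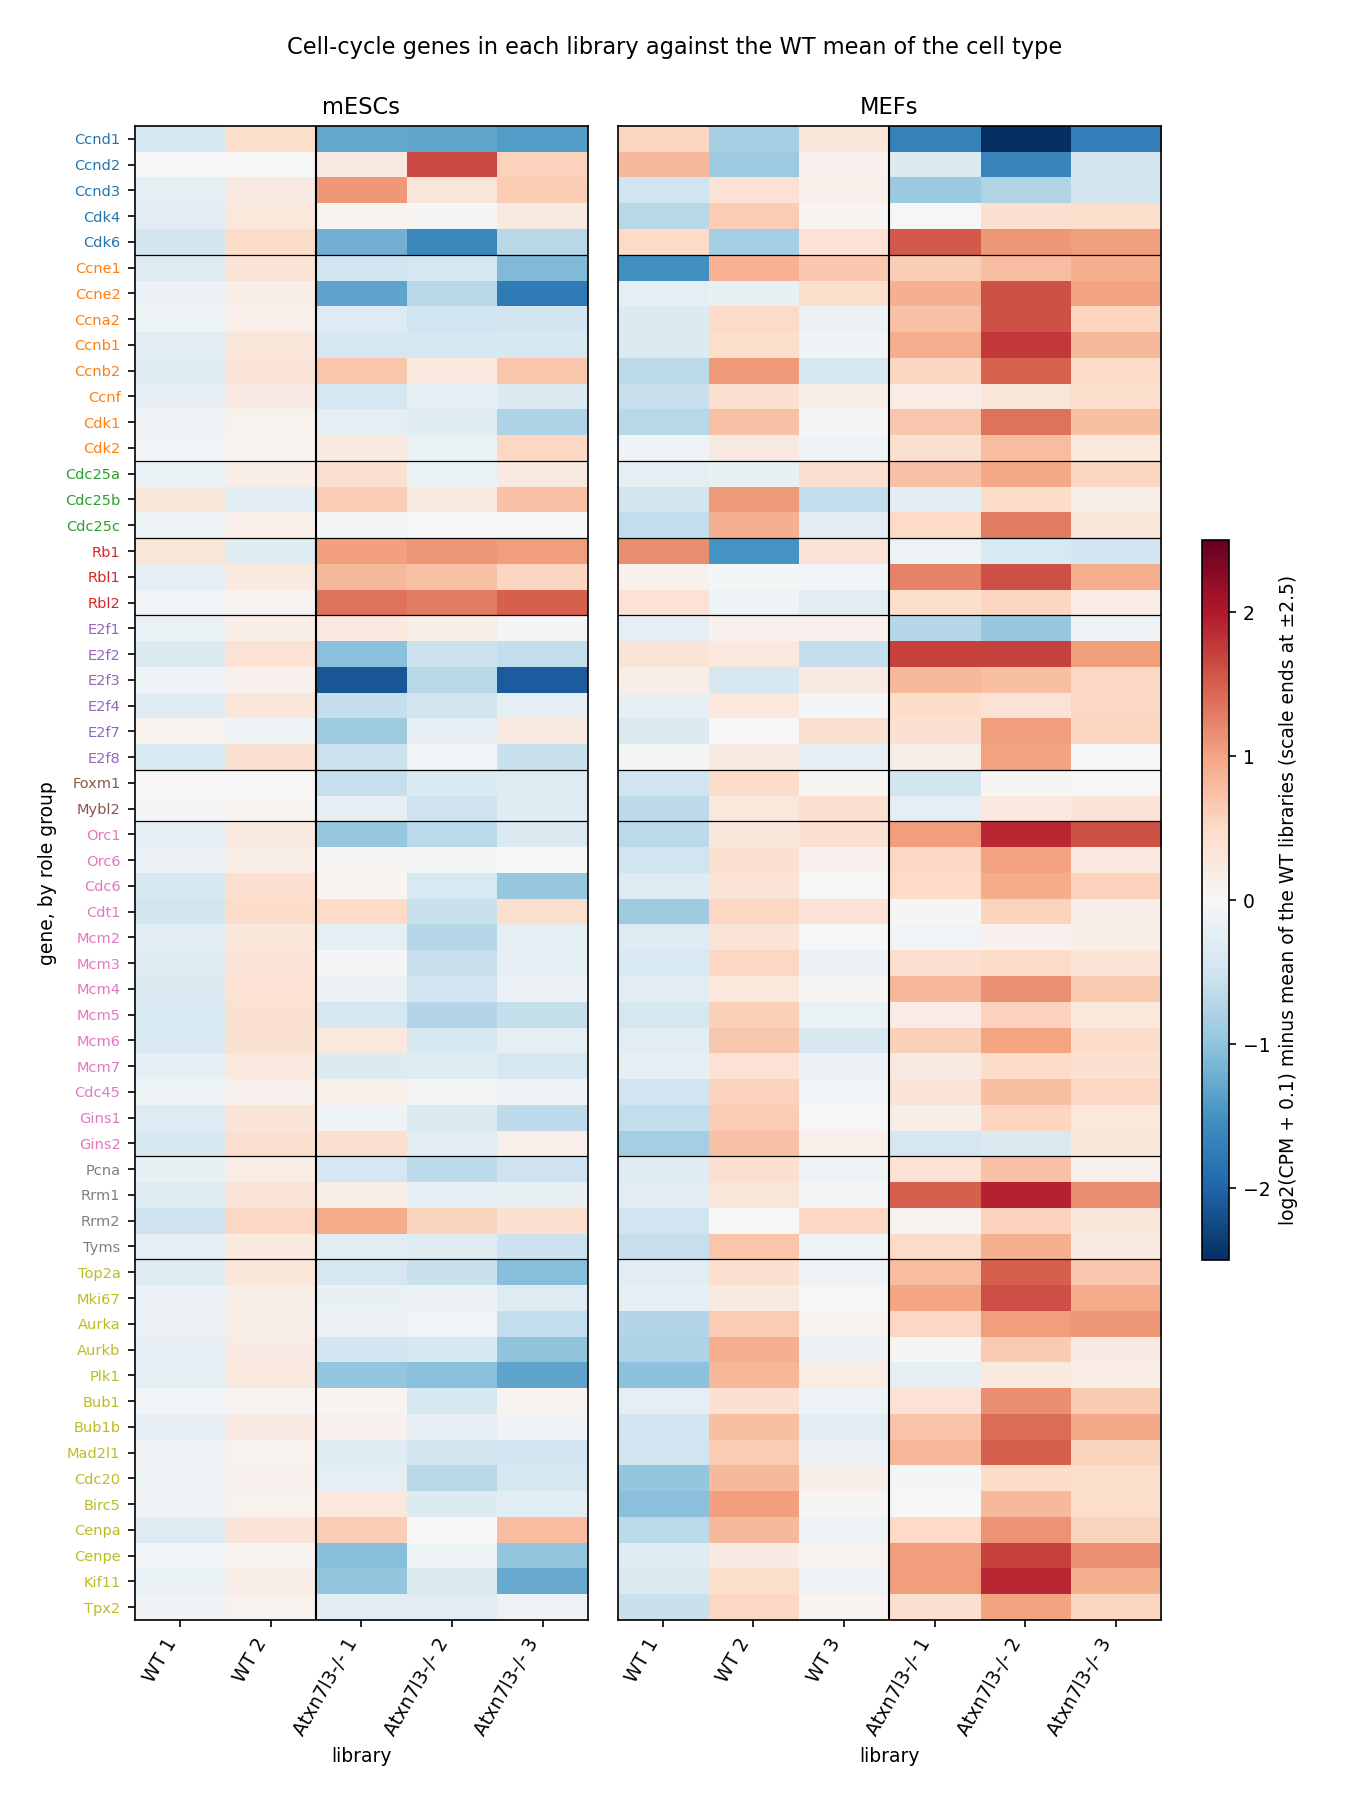
Level of each of the 58 members (a line per gene, grouped by role) in each of the 11 libraries as log2 (CPM + 0.1) minus the mean of the WT libraries of that cell type, on a colour scale cut at ±2.5. Most members are below the WT mean in the Atxn7l3-/- mESCs and above it in the MEFs labelled Atxn7l3-/-, with WT replicate 2 above WT replicate 1 for most members in both cell types.

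Among the D cyclins and their kinases, Ccnd1 was at 74.6 and 139 CPM in the WT mESCs and at 41.8, 41.3 and 38.7 CPM in the Atxn7l3-/- mESCs. The 3 Atxn7l3-/- values were alike and below both WT values, which were themselves far apart (log2 difference −1.39 ± 0.27, adjusted p = 0.0317). Ccnd3, the main D cyclin of these mESCs, was at 156 and 213 CPM against 386, 224 and 283 CPM, so that all 3 Atxn7l3-/- libraries lay above WT without passing the test (0.69 ± 0.28, adjusted p = 0.145). Ccnd2 was at 5.99 and 6.11 CPM against 7.13, 19.3 and 9.07 CPM, also without overlap (0.97 ± 0.48, adjusted p = 0.224). Cdk6 was at 25.2 and 47.1 CPM against 14.8, 11.2 and 21.2 CPM, all below WT (−1.20 ± 0.37, adjusted p = 0.0837), and its partner in function Cdk4 was at 358 and 521 CPM against 461, 442 and 501 CPM, within the WT range.

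All 3 pocket protein genes were higher in every Atxn7l3-/- mESC library than in either WT library. Rbl2 was at 13.7 and 14.9 CPM in the WT mESCs and at 36.7, 34.9 and 40.7 CPM in the Atxn7l3-/- mESCs. Rb1 was at 57.2 and 37.9 CPM against 95.4, 101 and 96.7 CPM. The spread within each group was small beside the gap for Rbl2 (1.38 ± 0.23, adjusted p = 0.0263) and larger among the WT values for Rb1 (1.04 ± 0.23, adjusted p = 0.0409). Rbl1, for the pocket protein p107, was at 32.8 and 45.5 CPM against 67.5, 63.9 and 56.1 CPM and missed the threshold (0.68 ± 0.23, adjusted p = 0.1).

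The promoters of called mESC members with an entry, Rbl2 (chr8:91069807-91070106, + strand) and Plk1 (chr7:122159185-122159484, + strand), are printed 5′ to 3′ from RefSeq GRCm38.p6 with motif letters in capitals, to show what a gene that rose and a gene that fell carry upstream. Each holds a CHR motif, and Plk1 also holds CCAAT.
Rbl2: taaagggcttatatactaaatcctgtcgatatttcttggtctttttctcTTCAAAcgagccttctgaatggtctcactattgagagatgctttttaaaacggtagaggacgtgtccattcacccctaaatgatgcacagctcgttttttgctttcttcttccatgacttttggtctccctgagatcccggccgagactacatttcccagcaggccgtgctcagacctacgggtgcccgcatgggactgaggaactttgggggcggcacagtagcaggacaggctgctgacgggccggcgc
Plk1: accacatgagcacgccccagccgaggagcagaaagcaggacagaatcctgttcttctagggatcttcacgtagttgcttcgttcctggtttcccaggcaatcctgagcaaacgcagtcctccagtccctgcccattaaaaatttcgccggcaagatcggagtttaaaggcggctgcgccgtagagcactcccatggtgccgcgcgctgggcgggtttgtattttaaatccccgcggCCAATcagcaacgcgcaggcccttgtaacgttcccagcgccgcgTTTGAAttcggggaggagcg

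Of the 8 genes of the E, A, B and F cyclins with CDK1 and CDK2, 6 were below 0 (median −0.44). Ccne2, an E cyclin, was at 29.6 and 36.5 CPM in the WT mESCs and at 13.1, 20.2 and 9.60 CPM in the Atxn7l3-/- mESCs, all below WT (−1.21 ± 0.34, adjusted p = 0.0719). Ccne1 was at 85.4 and 134 CPM against 76.1, 79.4 and 49.9 CPM (−0.68 ± 0.28, adjusted p = 0.154). Ccnb1, for the cyclin that starts mitosis, was at 88.8 and 130.5 CPM against 79.1, 80.8 and 81.3 CPM (−0.45 ± 0.21, adjusted p = 0.201). The groups did not overlap for any of these cyclins, yet none passed. Cdk1, the kinase of mitosis, was at 232 and 264 CPM against 209, 199.8 and 144 CPM, also below WT throughout (−0.43 ± 0.22, adjusted p = 0.227), whereas Ccnb2 was at 97.6 and 153 CPM against 198, 145 and 199 CPM, with overlap.

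Of the 6 E2F genes 5 were below 0 (median −0.44). E2f3, an activating E2F, was at 49.4 and 57.3 CPM in the WT mESCs and at 12.03, 33.0 and 12.5 CPM in the Atxn7l3-/- mESCs. Its Atxn7l3-/- values were the farthest below WT among the members, but their spread was wide and the test was missed (−1.48 ± 0.44, adjusted p = 0.0798). E2f1 was at 55.6 and 70.7 CPM against 74.0, 70.3 and 61.6 CPM, with overlapping groups (0.12 ± 0.20, adjusted p = 0.726). Mybl2 and Foxm1 were lower in all 3 Atxn7l3-/- libraries, at 495 and 528 CPM against 442, 358 and 415 CPM for Mybl2, without passing.

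The 13 licensing and helicase genes had a median of −0.30, with 11 below 0. Mcm5 was at 375 and 633 CPM in the WT mESCs and at 358, 291 and 320.3 CPM in the Atxn7l3-/- mESCs, where the WT values differ more than WT replicate 1 does from the Atxn7l3-/- group (−0.64 ± 0.25, adjusted p = 0.14). Pcna was at 101 and 131 CPM against 85.5, 72.6 and 80.8 CPM, below WT in all 3 libraries (−0.54 ± 0.20, adjusted p = 0.12). Of the other 3 DNA synthesis genes, Rrm2 was higher in 2 of the 3 Atxn7l3-/- libraries than in either WT library, at 155 and 314 CPM against 419, 324 and 292 CPM.

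Among the 14 mitosis genes 13 were below 0 (median −0.34), and only Plk1 passed. Plk1, the kinase that builds the spindle poles, was at 86.8 and 123 CPM in the WT mESCs and at 52.8, 50.2 and 41.4 CPM in the Atxn7l3-/- mESCs. The Atxn7l3-/- values lay close together and well under both WT values (−1.12 ± 0.22, adjusted p = 0.0332). Mki67 was at 164 and 202 CPM against 159, 164 and 146 CPM, which is barely below WT replicate 1 (−0.23 ± 0.19, adjusted p = 0.441). The 14 genes summed to 2798 and 3653 CPM in the WT mESCs and to 2649, 2460 and 2189 CPM in the Atxn7l3-/- mESCs, so the gap between the WT libraries was larger than that from WT replicate 1 to the Atxn7l3-/- group.

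A further 124 genes of replication, mitosis, the anaphase promoting complex, the DREAM and MuvB subunits and the CDK inhibitors showed 4 lower and 0 higher in mESCs (edgeR; 21 lower and 9 higher at an unadjusted p under 0.05; 15 lower and 5 higher by DESeq2), with a median of −0.04, where edgeR called 690 of all 17800 genes lower and DESeq2 1687. Over all genes 2643 were lower and 2666 higher at an unadjusted p under 0.05, and 1739 higher by DESeq2, so the 21 are near the share of genes in general. Those that passed were the origin firing factor Ticrr (−1.54 ± 0.26), the anaphase promoting complex subunit Cdc27 (−1.09 ± 0.23), the cytokinesis factor Ect2 (−0.84 ± 0.18) and the flap nuclease Fen1 (−0.78 ± 0.18). Ticrr was at 351 and 373 CPM in the WT mESCs and at 111, 168 and 95.8 CPM in the Atxn7l3-/- mESCs, so the groups were far apart. Of the 9 CDK inhibitors and inhibitory kinases 7 were above 0 (median 0.50), with 0 called by edgeR, 4 higher at an unadjusted p under 0.05 and 4 higher by DESeq2. Cdkn1a, for the inhibitor p21, was at 311 and 297 CPM against 532, 458 and 596 CPM, above WT in all 3 libraries (0.80 ± 0.20, adjusted p = 0.055).

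The mESC calls rest on few libraries. Without WT replicate 1, WT replicate 2 or Atxn7l3-/- replicate 1 edgeR called 0 members (17, 8 and 12 at an unadjusted p under 0.05), when it called 0, 0 and 3 genes of all tested. Without Atxn7l3-/- replicate 2 it called 8, and 2242 of all genes. With all 5 libraries DESeq2 called 7, and 1739 higher and 1687 lower of all genes, an unfiltered fit called 8 and 2995, and a fit that pooled all 11 libraries called 1, Rbl2, and 446. Fibroblast markers, which feeder cells also carry, summed to 29.1 and 109 CPM in the WT mESCs and to 318, 437 and 322 CPM in the Atxn7l3-/- mESCs, with 1 of 8 called (Col1a1, the most abundant per kb, 2.54 ± 0.59). Col1a1, Col1a2, Col3a1, Twist1 and Prrx1 were above both WT libraries in all 3 Atxn7l3-/- libraries, with Prrx1 at 0.107 to 5.03 CPM. Of other cell type lists, 1 of 8 epithelium and mesothelium markers was called higher and 1 of 4 endoderm markers lower. The part of cells with these markers in the members' differences was not tested. The lines also differ by sex markers: the 5 summed to 175 and 424 CPM in the WT mESCs and to 66.4, 52.5 and 494 CPM in the Atxn7l3-/- mESCs, with Ddx3y at 90.6, 193, 3.46, 0.882 and 225 CPM in the same order, and 1 of 5, Kdm5d, lower. The values of Ccnd1, Rbl2, Rb1 and Plk1 in Atxn7l3-/- replicate 3, the line with high Ddx3y, sat with those of replicates 1 and 2. With only 1 such Atxn7l3-/- line, the part of sex in the members' differences in mESCs was not tested.

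In the MEFs labelled Atxn7l3-/- 4 members passed the test. Rrm1, which makes deoxynucleotides, the kinetochore motor gene Cenpe, the pocket protein gene Rbl1 and the proliferation marker Mki67 rose. These were the 4 members called higher of 58, with 0 called lower (edgeR; 18 higher and 2 lower at an unadjusted p under 0.05; 12 higher and 1 lower by DESeq2), where 5.01% of 15958 genes tested were higher and 4.39% lower. Over all genes 2327 were higher and 2839 lower at an unadjusted p under 0.05, and 1723 higher and 2213 lower by DESeq2. The 4 also passed the study's fold and level cuts set on the edgeR values, as did 4.34% of genes as higher and 3.26% as lower. The number called is near that of genes in general, but 49 of 58 members were above 0, with a median log2 difference of 0.48 beside −0.06 over all genes. The members shift together by library, and in WT replicate 2 alone 47 of 58 lay above the WT mean (median 0.40). The 58 are therefore not separate observations. In 18 members every library labelled Atxn7l3-/- lay above all 3 WT libraries and in 1, Ccnd1, every one lay below, beside 20.0% and 19.8% of genes.

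After the group mean of log2 CPM was subtracted from each gene, same-numbered MEF libraries correlated across genes (r of 0.473, 0.161 and 0.240). Differently numbered pairs ran from −0.262 to 0.0516, values that the centring itself pulls down. A fit with the replicate as a block is therefore given beside this one. With the block 12 members were higher and 1 lower, beside 5.50% and 8.49% of genes, and the median was 0.56. The 12 were Rrm1, Orc1, E2f2, Cenpe, Kif11, Rbl1, Mki67, Ccnb1, Bub1b, Top2a, Mad2l1 and Ccna2, and the lower member was Ccnd1.

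**Figure D4:**
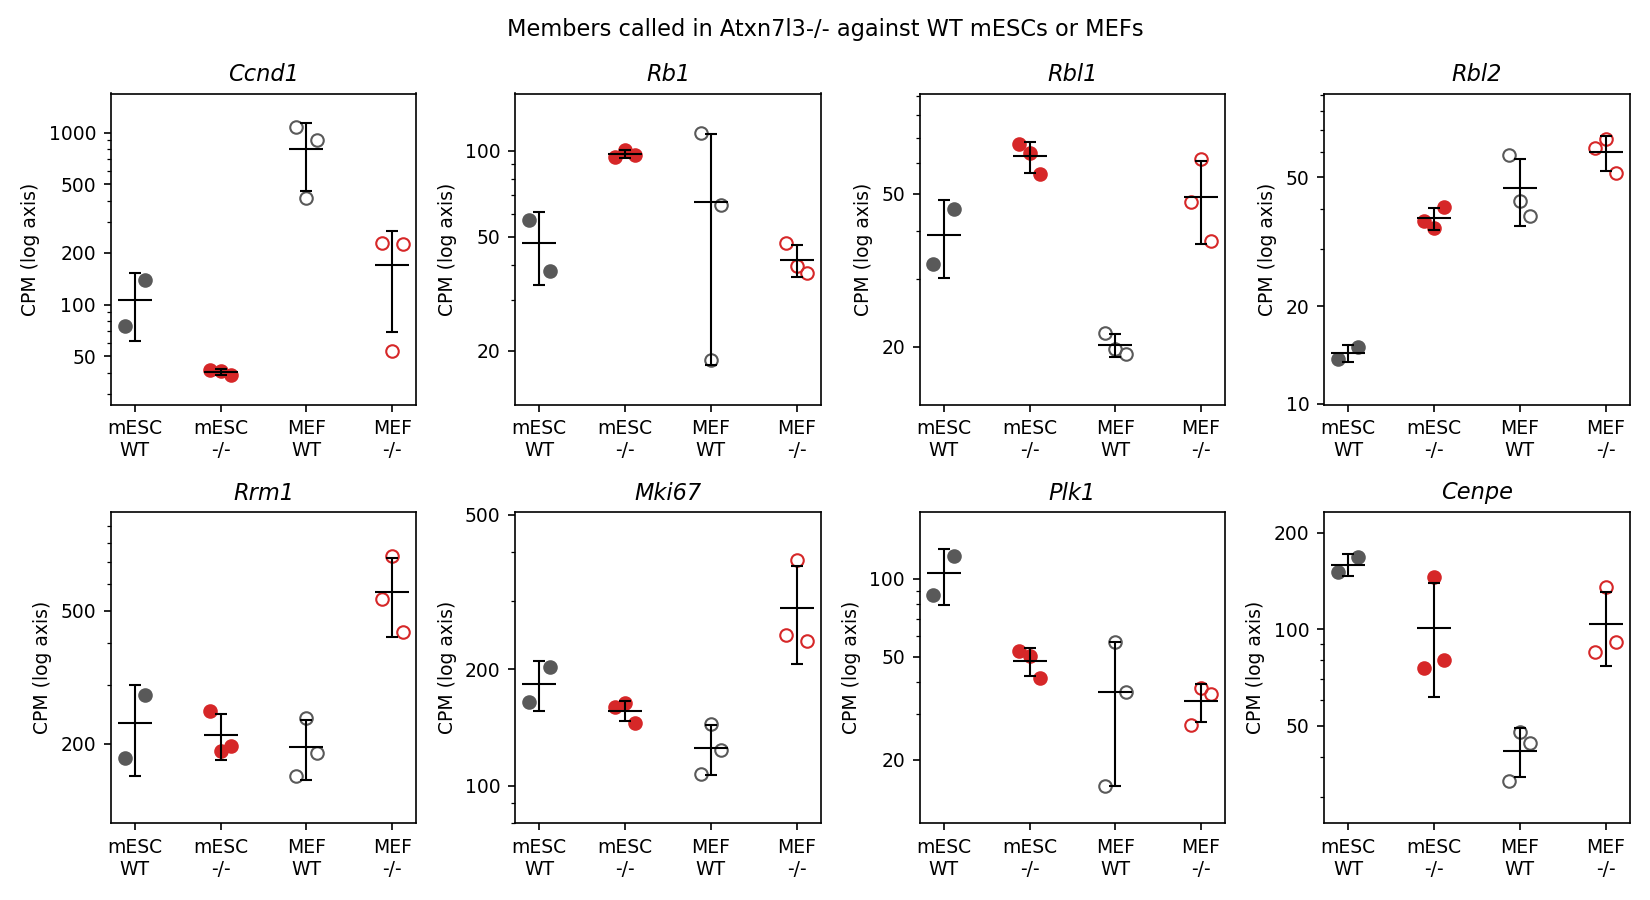
CPM (log axis) in each library of the members called in Atxn7l3-/- against WT mESCs or MEFs. Filled points are mESCs and open points MEFs, with grey for WT, red for Atxn7l3-/- and black lines for the mean ± SD. Rbl2, Rb1, Ccnd1 and Plk1 separate by genotype in mESCs, and Rrm1, Cenpe, Rbl1 and Mki67 separate by label in MEFs.

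All 3 D cyclins lay below 0. Ccnd1 was at 1074, 417 and 906 CPM in the WT MEFs and at 229, 53.9 and 225 CPM in those labelled Atxn7l3-/-. All 3 lay below every WT library, and replicate 2 was the lowest of each group, and the difference missed the threshold in edgeR without the block and passed with it and by DESeq2 (−2.24 ± 0.62, adjusted p = 0.067; with the block −2.39 ± 0.30). Ccnd2, the most abundant D cyclin per kb in MEFs, was at 3079, 937 and 1913 CPM against 1396, 563 and 1282 CPM, with overlap (−0.87 ± 0.54, adjusted p = 0.295). Ccnd3 was at 129.9, 234 and 200.003 CPM against 95.8, 108 and 133 CPM (−0.75 ± 0.27, adjusted p = 0.117). The summed reads per kb of the 3 D cyclins were 130500 ± 59642 (SD, n = 3) in the WT MEFs and 66453 ± 25825 (n = 3) in those labelled Atxn7l3-/-, with WT replicate 2 within the labelled libraries.

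Rbl1 was at 21.7, 19.7 and 19.1 CPM in the WT MEFs and at 47.6, 61.5 and 37.7 CPM in those labelled Atxn7l3-/-. The WT values were alike and every labelled library was well above them (1.28 ± 0.24, adjusted p = 0.029). Rb1 was at 116, 18.5 and 64.9 CPM against 47.5, 39.6 and 37.4 CPM, with WT values on both sides of the labelled ones (−0.68 ± 0.58, adjusted p = 0.441). E2f2, an activating E2F and the member with the fewest reads per kb, was at 3.85, 3.65 and 1.98 CPM against 10.2, 10.1 and 6.40 CPM, without overlap (1.49 ± 0.42, adjusted p = 0.0683; with the block 1.52 ± 0.32). E2f1 was at 38.6, 48.5 and 48.2 CPM against 27.3, 23.2 and 41.9 CPM, with overlap (−0.55 ± 0.27, adjusted p = 0.209).

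All 8 genes of the E, A, B and F cyclins with CDK1 and CDK2 were above 0 (median 0.77). Ccnb1 was at 13.4, 23.0 and 15.9 CPM in the WT MEFs and at 31.9, 58.3 and 30.0 CPM in those labelled Atxn7l3-/-, all above WT (1.20 ± 0.35, adjusted p = 0.0741; with the block 1.17 ± 0.21). Cdk1 was at 62.5, 168 and 97.2 CPM against 161, 258 and 168 CPM, where WT replicate 2 reached the lowest labelled values (0.84 ± 0.39, adjusted p = 0.187). Ccne1 was at 9.59, 51.4 and 44.7 CPM against 43.0, 47.8 and 52.6 CPM, with overlap (0.44 ± 0.56, adjusted p = 0.606).

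Of the 13 licensing and helicase genes 12 were above 0 (median 0.36), with 0 called by edgeR, 2 higher at an unadjusted p under 0.05 and 2 higher by DESeq2. Orc1 was at 3.44, 6.78 and 7.26 CPM in the WT MEFs and at 11.6, 20.8 and 17.0 CPM in those labelled Atxn7l3-/-, without overlap (1.498 ± 0.41, adjusted p = 0.0639; with the block 1.53 ± 0.28). Mcm5 was at 43.6, 89.6 and 53.0 CPM against 67.0, 88.5 and 71.3 CPM, with WT replicate 2 above them all (0.29 ± 0.30, adjusted p = 0.535). Among the DNA synthesis genes Rrm1 was at 160.5, 238 and 188 CPM against 542, 732 and 433 CPM. Its labelled values were all far above WT (1.54 ± 0.29, adjusted p = 0.0286), while Pcna was at 41.3, 68.0 and 47.8 CPM against 65.6, 84.8 and 54.8 CPM, with overlap (0.39 ± 0.27, adjusted p = 0.347).

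Of the 14 mitosis genes 13 were above 0 (median 0.77). Mki67 was at 107, 144 and 124 CPM in the WT MEFs and at 245, 382 and 236 CPM in those labelled Atxn7l3-/-. Cenpe was at 33.6, 47.6 and 44.0 CPM against 85.0, 135 and 91.1 CPM. Both genes were higher in all 3 labelled libraries than in any WT library (Mki67 1.20 ± 0.26, adjusted p = 0.0411; Cenpe 1.31 ± 0.26, adjusted p = 0.0323). Kif11, the motor that pushes the spindle poles apart, was at 33.8, 58.9 and 40.5 CPM against 89.0, 160.0 and 79.9 CPM, also without overlap (1.30 ± 0.35, adjusted p = 0.0615; with the block 1.27 ± 0.20). Plk1, which fell in mESCs, was at 15.8, 57.0 and 36.7 CPM against 27.3, 37.9 and 35.9 CPM, within the WT range (−0.11 ± 0.45, adjusted p = 0.875, and above 0 with the block at 0.05). The 14 genes summed to 585, 1173 and 785 CPM in the WT MEFs and to 1261, 2013 and 1315 CPM in those labelled Atxn7l3-/-, with replicate 2 the highest of each group.

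The promoters of the 4 members that rose in MEFs, Rbl1 (chr2:157204485-157204784, − strand), Rrm1 (chr7:102441445-102441744, + strand), Mki67 (chr7:135716330-135716629, − strand) and Cenpe (chr3:135212313-135212612, + strand), are printed 5′ to 3′ from RefSeq GRCm38.p6 with motif letters in capitals, to show that genes called together carry different motifs. Rbl1 holds an E2F motif, Mki67 holds CHR and CCAAT motifs, and Rrm1 and Cenpe hold CCAAT alone.
Rbl1: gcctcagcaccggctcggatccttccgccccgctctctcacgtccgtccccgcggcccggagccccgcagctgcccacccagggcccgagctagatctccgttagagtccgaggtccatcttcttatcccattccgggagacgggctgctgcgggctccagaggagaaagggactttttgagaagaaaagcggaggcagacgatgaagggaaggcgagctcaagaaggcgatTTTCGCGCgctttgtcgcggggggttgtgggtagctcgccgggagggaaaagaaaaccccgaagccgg
Rrm1: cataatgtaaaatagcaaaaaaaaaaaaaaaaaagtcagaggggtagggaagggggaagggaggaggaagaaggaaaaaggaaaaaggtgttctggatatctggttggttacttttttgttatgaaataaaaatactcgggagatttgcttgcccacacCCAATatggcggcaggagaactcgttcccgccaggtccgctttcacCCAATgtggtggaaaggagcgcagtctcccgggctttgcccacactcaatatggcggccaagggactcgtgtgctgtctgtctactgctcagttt
Mki67: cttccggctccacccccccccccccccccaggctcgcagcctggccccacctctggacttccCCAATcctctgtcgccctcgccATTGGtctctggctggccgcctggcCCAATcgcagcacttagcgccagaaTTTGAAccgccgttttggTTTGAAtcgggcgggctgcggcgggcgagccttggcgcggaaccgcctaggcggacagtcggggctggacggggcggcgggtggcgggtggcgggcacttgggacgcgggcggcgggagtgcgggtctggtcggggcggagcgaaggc
Cenpe: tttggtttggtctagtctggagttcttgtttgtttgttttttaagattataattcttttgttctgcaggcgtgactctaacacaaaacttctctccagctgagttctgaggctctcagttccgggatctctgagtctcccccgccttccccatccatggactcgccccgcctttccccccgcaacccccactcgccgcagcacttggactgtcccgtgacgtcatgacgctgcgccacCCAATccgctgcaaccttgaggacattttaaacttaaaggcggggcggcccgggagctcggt

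Of the further 124 genes 8 were higher and 0 lower in the MEFs labelled Atxn7l3-/- (edgeR; 35 higher and 4 lower at an unadjusted p under 0.05; 21 higher and 2 lower by DESeq2; 18 higher and 1 lower with the block), with a median of 0.41. The same fits called 800, 1723 and 877 of all 15958 genes higher by edgeR, by DESeq2 and with the block. At an unadjusted p under 0.05 edgeR had 2327 of them higher. The 8 are near the share of genes in general, while the 21, the 18 and the 35 were above the shares of their own fits. These lists were chosen with earlier results of these data known and were measured in the same libraries as the members. The counts are therefore no separate support for the members. The largest was Anapc1, a scaffold subunit of the anaphase promoting complex, at 214, 177 and 204 CPM in the WT MEFs and at 1054, 1512 and 631 CPM in those labelled Atxn7l3-/- (2.42 ± 0.36, adjusted p = 0.0177). The others were Ect2 (1.51 ± 0.32), the E2F partners Tfdp2 and Tfdp1 (0.80 ± 0.17 for Tfdp1), the cytokinesis scaffold Anln (1.34 ± 0.28), the condensin subunit Smc2 (1.22 ± 0.23), the DNA polymerase subunit Pola1 (1.22 ± 0.28) and the spindle pole gene Aspm (1.14 ± 0.25). With the block Ect2 (1.44 ± 0.33) and Tfdp1 (0.79 ± 0.18) were not called. Of the 9 CDK inhibitors and inhibitory kinases 7 were below 0 (median −0.58), with 0 called by edgeR, 2 lower at an unadjusted p under 0.05 and 2 lower by DESeq2. Of all 15958 genes 701, 2839 and 2213 were lower in the same order. Cdkn2a, for p16 and p19ARF, was at 69.6, 67.3 and 157 CPM against 32.8, 16.2 and 39.1 CPM, below WT in all 3 libraries (−1.74 ± 0.47, adjusted p = 0.0621; with the block −1.72 ± 0.28).

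The MEF calls also rest on few libraries. Without WT replicate 1, WT replicate 3, Atxn7l3-/- replicate 1 or Atxn7l3-/- replicate 2 edgeR called 0 members (15, 15, 15 and 12 at an unadjusted p under 0.05), when it called 464, 197, 252 and 285 genes of all tested, and without WT replicate 2 it called 2, and 866 genes. An unfiltered fit called 7, and 1896 genes, and a pooled fit of all 11 libraries 13, and 3569 genes. Upper-quartile scaling kept Rrm1, Cenpe and Rbl1 and not Mki67. Replicate 2 of the WT MEFs held most members above the WT mean (47 of 58, median 0.40) and replicate 1 few (8 of 58, median −0.37), beside 0.43, 0.85 and 0.45 for the libraries labelled Atxn7l3-/-. Across genes the MEF log2 difference ran against GC content (Spearman rho −0.394 over 15944 genes and −0.605 over the 58 members, whose values share the libraries). A GC correction chosen after seeing the data called 2 members, Rbl1 and E2f4, beside 721 genes higher and 518 lower. Of the members called without it, it kept only Rbl1. With the block it called 7 higher and 1 lower, beside 804 and 899 genes. The member medians were 0.48 and, with the block, 0.54.

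Markers of other cell types moved with the MEF label as well. The 8 epithelium and mesothelium markers summed to 13.8, 33.97 and 23.5 CPM in the WT MEFs and to 3244, 2246 and 2403 CPM in those labelled Atxn7l3-/-, with 4 of 8 higher (Upk3b, the most abundant per kb, Msln, Wt1 and Krt18) and the epithelial Epcam and Cdh1 at 0 to 1.39 CPM. The 4 endoderm markers summed to 6.18, 15.6 and 12.5 CPM against 335, 432 and 207 CPM, with Gata6, the most abundant per kb, and Gata4 higher, Sox7 lower, and Sox17 at 0 in all 3 labelled libraries. The 6 macrophage markers summed to 379, 326 and 162 CPM against 739, 223 and 124 CPM, led per kb by Cd68, with 0 of 6 called by edgeR. Of the sex markers Xist was at 300.5 CPM in WT replicate 3 and under 1 CPM in the other 5, and Ddx3y at 0.218 CPM in that library and at 59.2 to 241 CPM in the others. With the block Pdgfra, a fibroblast marker, was higher (2.35 ± 0.40), and the endothelial Kdr (−2.34) and the muscle gene Actc1 (−4.05) were lower. The part of these cells and of sex in the members' differences was not tested.

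The interaction tests the difference between the genotype differences itself, MEF minus mESC, in 1 fit of all 11 libraries, and shares its libraries with the comparisons above. It was above 0 for 49 of 58 members, and 11 were called higher in this sense, with 0 lower (edgeR; 24 higher and 4 lower at an unadjusted p under 0.05; 15 higher and 2 lower by DESeq2), where 6.14% of 19326 genes were higher and 5.27% lower. For all genes these counts were 2919 and 3062 at an unadjusted p under 0.05, and 2055 and 2191 by DESeq2. The median was 0.83 beside −0.09 over all genes. The genotype comparisons share no library, and 40 of 58 members were below 0 in mESCs and above 0 in MEFs (69.0%), as were 3723 of 14297 genes tested in both (26.0%). Within a cell type the members shift together by library, with 54 of 58 above the WT mean in mESC WT replicate 2 and 4 in mESC WT replicate 1. They are therefore not separate observations. The 11 were Cdk6, the cyclins Ccne2 and Ccnb1, E2f2 and E2f3, Orc1, Rrm1, and the mitosis genes Kif11, Cenpe, Top2a and Mki67. No CDC25, pocket protein or late factor gene was among them. With the replicate block 10 were called: Rrm1 (1.62 ± 0.43) and Top2a (1.51 ± 0.38) were not, and Ccna2 (1.42 ± 0.34) was. That fit called 615 of all genes higher and 766 lower. The GC correction called 7 members higher and 1 lower, beside 1010 and 674 genes, and with the block 8 higher, beside 577.

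**Figure D5:**
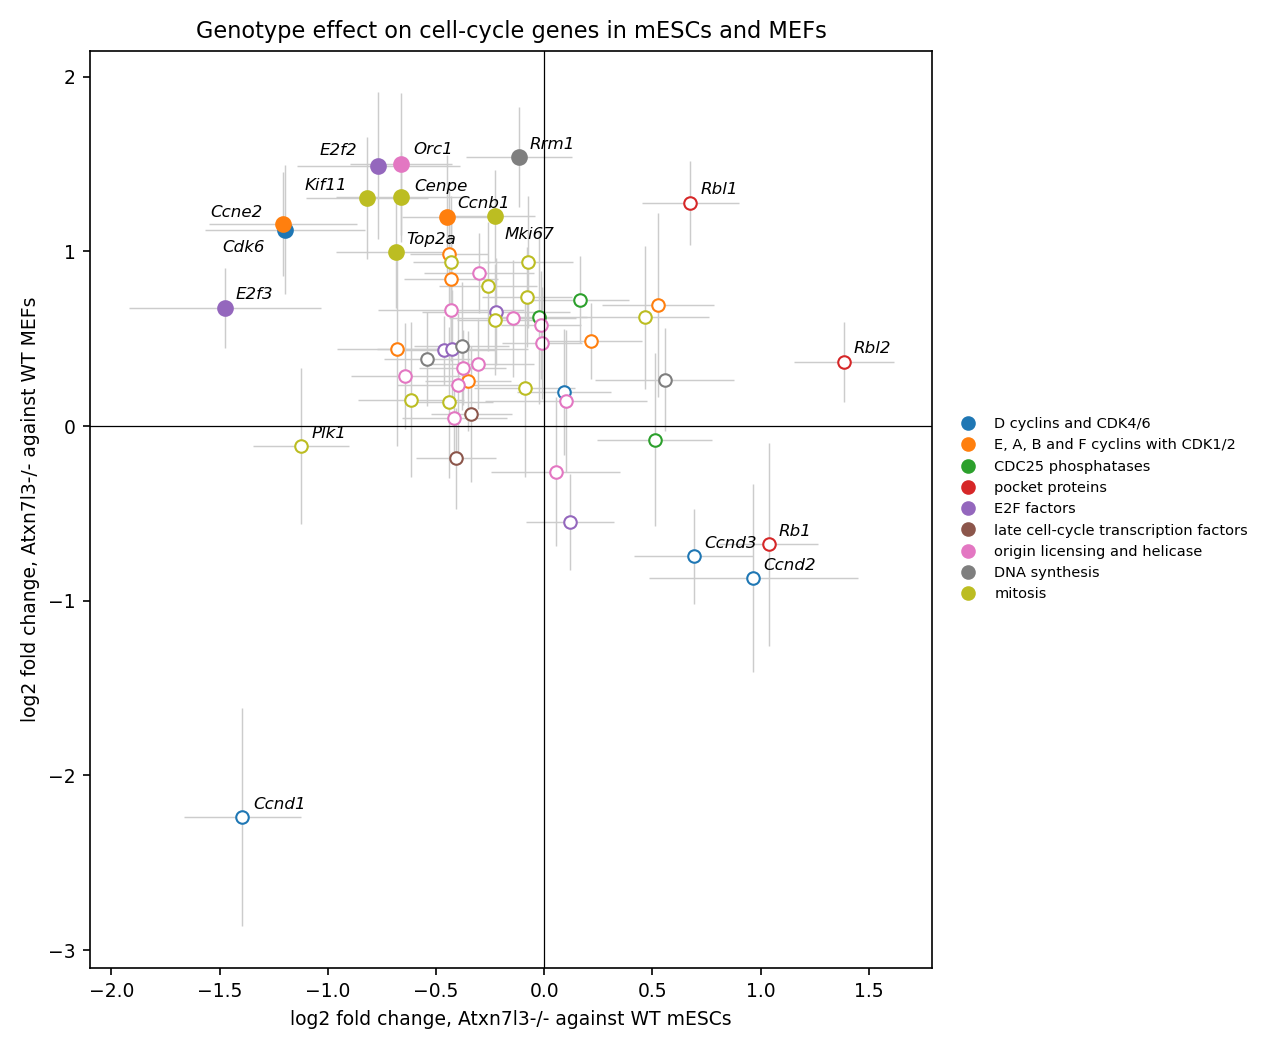
Log2 difference of Atxn7l3-/- against WT in mESCs (horizontal axis) and in MEFs (vertical axis) for each of the 58 members, with bars for the SE and filled points for the 11 called in the interaction. Of the 58 points 40 lie left of 0 and above 0, and Ccnd1 lies below 0 on both axes.

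Ccne2 had the largest value (2.42 ± 0.50, adjusted p = 0.0173): the cyclin was below WT in every Atxn7l3-/- mESC library, and in MEFs it was at 19.2, 20.1 and 30.9 CPM in WT and at 42.2, 68.8 and 45.7 CPM with the Atxn7l3-/- label. Cdk6 followed (2.41 ± 0.56, adjusted p = 0.0248), below WT throughout in mESCs and in MEFs at 90.8, 35.7 and 82.6 CPM against 186, 137 and 133 CPM. For both genes the groups were apart in each cell type and in opposite directions. E2f2 (2.33 ± 0.59, adjusted p = 0.0333), E2f3 (2.21 ± 0.56, adjusted p = 0.0336) and Orc1 (2.22 ± 0.48, adjusted p = 0.0201) did the same. In mESCs Orc1 was at 98.7 and 134 CPM against 59.8, 71.6 and 89.1 CPM, and in MEFs E2f3 was at 48.1, 32.4 and 50.3 CPM against 75.4, 72.4 and 61.4 CPM. The mitosis genes Kif11 (2.18 ± 0.51, adjusted p = 0.0263), Cenpe (2.02 ± 0.45, adjusted p = 0.0212), Top2a (1.74 ± 0.47, adjusted p = 0.0392) and Mki67 (1.49 ± 0.34, adjusted p = 0.024) and the cyclin Ccnb1 (1.71 ± 0.45, adjusted p = 0.0373) also lay on opposite sides without overlap. Top2a was at 798 and 1227 CPM against 741, 676 and 471 CPM in mESCs and at 146, 237 and 162 CPM against 303, 499.9 and 283 CPM in MEFs. Rrm1 differed in MEFs while its mESC groups overlapped, at 181 and 279.7 CPM against 251, 189.7 and 197 CPM (1.72 ± 0.40, adjusted p = 0.0249).

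The promoters of Orc1 (chr4:108579204-108579503, + strand), Kif11 (chr19:37376132-37376431, + strand) and Top2a (chr11:99024140-99024439, − strand) stand for the licensing and mitosis genes called in the interaction, printed 5′ to 3′ from RefSeq GRCm38.p6 with motif letters in capitals. Orc1 holds an E2F motif and CCAAT, Kif11 holds 1 CHR and 1 CCAAT motif, and Top2a holds 4 CHR and 6 CCAAT motifs.
Orc1: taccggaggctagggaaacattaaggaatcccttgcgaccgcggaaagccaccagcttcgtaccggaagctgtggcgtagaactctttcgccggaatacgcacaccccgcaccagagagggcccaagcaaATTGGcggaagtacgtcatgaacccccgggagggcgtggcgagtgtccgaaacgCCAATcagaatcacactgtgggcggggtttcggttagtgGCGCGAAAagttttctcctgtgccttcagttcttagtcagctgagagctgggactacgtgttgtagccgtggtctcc
Kif11: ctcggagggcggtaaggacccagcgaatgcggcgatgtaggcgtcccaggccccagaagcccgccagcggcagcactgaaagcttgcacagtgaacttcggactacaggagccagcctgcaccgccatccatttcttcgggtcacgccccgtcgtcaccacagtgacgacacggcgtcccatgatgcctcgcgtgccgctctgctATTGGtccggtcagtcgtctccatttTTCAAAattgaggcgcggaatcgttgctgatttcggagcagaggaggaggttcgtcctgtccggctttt
Top2a: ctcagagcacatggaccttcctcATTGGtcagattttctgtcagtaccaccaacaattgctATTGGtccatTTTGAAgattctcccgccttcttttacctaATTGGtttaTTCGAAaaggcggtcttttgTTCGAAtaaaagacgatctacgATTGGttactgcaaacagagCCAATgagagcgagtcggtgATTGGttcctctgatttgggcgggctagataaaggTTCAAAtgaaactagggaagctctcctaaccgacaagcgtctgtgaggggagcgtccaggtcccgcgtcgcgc

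Of the 9 members below 0 in the interaction, the 6 lowest were D cyclins, pocket protein genes and E2f1, and the others were Cdc25b, Gins2 and Rrm2. Ccnd2 (−1.78 ± 0.77, adjusted p = 0.144), Rb1 (−1.64 ± 0.72, adjusted p = 0.149), Ccnd3 (−1.37 ± 0.41, adjusted p = 0.0552), Rbl2 (−0.94 ± 0.31, adjusted p = 0.0729) and Ccnd1 (−0.77 ± 0.75, adjusted p = 0.512) lay lowest and did not pass. For Ccnd1 the difference was negative in both cell types, and for Rbl1 positive in both. The rest of the genes named throughout did not pass either: Cdk1 (1.33 ± 0.51, adjusted p = 0.109), Ccne1 (1.17 ± 0.72, adjusted p = 0.293), Plk1 (1.06 ± 0.57, adjusted p = 0.229), Pcna (1.00 ± 0.36, adjusted p = 0.0956), Mcm5 (0.99 ± 0.44, adjusted p = 0.152) and E2f1 (−0.61 ± 0.36, adjusted p = 0.271). So Plk1, called in mESCs and not in MEFs, was not shown to differ between them.

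Of the further 124 genes 15 were higher and 2 lower in the interaction, beside 1187 and 1018 of 19326 genes, with a median of 0.55. The highest were Anapc1 (2.89 ± 0.42), Ect2 (2.41 ± 0.40) and Ticrr (2.06 ± 0.43), and the lower ones were the CDK4 and CDK6 inhibitor genes Cdkn2a (−2.84 ± 0.62) and Cdkn2b (−2.46 ± 0.48). Cdkn2b was at 3.91 and 3.19 CPM in the WT mESCs and at 8.81, 8.10 and 10.1 CPM in the Atxn7l3-/- mESCs, but at 98.9, 72.9 and 170.4 CPM in the WT MEFs and at 63.9, 38.1 and 48.4 CPM in those labelled Atxn7l3-/-. Both inhibitors were thus above WT in every Atxn7l3-/- mESC library and below it in every labelled MEF library. Without mESC WT replicate 1 or 2 edgeR called 0 members in the interaction (25 and 15 at an unadjusted p under 0.05), when it called 253 and 322 genes of all tested. Without mESC Atxn7l3-/- replicates 1 and 3 in turn it called 2 and 4, and 887 and 1075 genes. Without MEF WT replicates 2 and 3 in turn it called 20 and 6, and 2155 and 1442 genes, and without MEF Atxn7l3-/- replicates 1 and 2 in turn 6 and 5, and 1173 and 1070 genes.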

How the data were processed

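The counts used here are raw reads per gene as deposited: the authors made them, per their processing notes, with bcl2fastq 2.17.1.14, cutadapt 1.10, STAR 2.5.3a and HTSeq 0.6.1p1 on mm10. The deposited signal values are those counts divided, by the authors with DESeq2 1.16.1, by 1 size factor per library within each table, and then by median transcript length in kb. The deposited tables also hold log2 fold changes and p values for each genotype comparison, which were not used here, and an unnamed MEF column that was not used here.

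Genes were filtered (filterByExpr), scaled (TMM) and tested in each cell type with edgeR 4.0.16 quasi-likelihood F tests in R 4.3.3 (limma 3.58.1), with Benjamini-Hochberg adjusted p of 0.05 or less as the call. The interaction and the WT comparison came from 1 fit of the 4 group means over 11 libraries. SE is the absolute log2 difference divided by the square root of F. CPM values carry no prior count, and the floor is 3 counts. Alternatives were DESeq2 1.42.0, RLE and upper-quartile scaling, no filter, at least 10 counts in every library, a replicate block, 1 fit of all libraries, each library left out, and a GC correction (lowess span 0.3) with and without the block, chosen after seeing the data. As deviations of log2 CPM from the group mean, same-numbered WT and Atxn7l3-/- libraries correlated in MEFs (r = 0.473, 0.161 and 0.240). In mESCs r was 0.0078 and −0.172. There the 2 WT libraries are mirror images once centred, so these values are a weak check. Tables were summarised in Python 3.11.15 (pandas 2.3.3, numpy 2.4.6, matplotlib 3.10.9).

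Members, roles and the further lists were chosen with earlier results of these data known. Each comparison names its called members of largest log2 difference, up to 10 in each direction, or the 5 of largest difference where fewer than 5 passed, and the same genes of each step throughout; other genes were chosen after their values were seen. Of the members 56 of 58 had the same coordinates in GENCODE M21.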

Additional observations from a re-analysis of the deposited data

Results flagged for a closer look

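The interaction test of cell type and genotype passed for 11 members, which a reader may want to look at again. Their log2 values, MEF minus mESC, were 2.42 for Ccne2, 2.41 for Cdk6, 2.33 for E2f2, 2.22 for Orc1, 2.21 for E2f3, 2.18 for Kif11, 2.02 for Cenpe, 1.74 for Top2a, 1.72 for Rrm1, 1.71 for Ccnb1 and 1.49 for Mki67. With the replicate block, Rrm1 at 1.62 and Top2a at 1.51 no longer passed, and the other 9 did.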

How the results depend on the processing

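No named member that was called changed sign in any setting. Plk1 in MEFs, not called, went from −0.11 to 0.05 with the replicate block. Of the 4 members called in mESCs, DESeq2 made 7, an unfiltered fit 8 and 1 fit of all 11 libraries 1, and leaving out each library gave 0 to 8. In MEFs, with 4 called, the replicate block, DESeq2 and 1 fit of all 11 libraries each made 13. An unfiltered fit made 7, the GC correction 2 and the GC correction with the block 8. Of the 4, the GC correction without the block kept only Rbl1, and it called E2f4 besides. Leaving out each library gave 0 to 5. In the interaction, with 11 called, DESeq2 made 17, the block 10, the GC correction 8 and the GC correction with the block 8, and leaving out each library gave 0 to 20. In the WT comparison, with 40 called, leaving out each library gave 26 to 47. With 1 WT mESC library left, its group was taken to vary like the others.

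Over single genes, settings other than leaving out a library kept 137 of 153 values in mESCs, 125 of 162 in MEFs, 151 of 176 in the interaction and 165 of 176 in the WT comparison. Leaving out each library kept 58 of 85, 82 of 108, 175 of 242 and 228 of 242 in the same order. Among the members in MEFs the block changed no other call than those given with it. In mESCs, where the correlation of same-numbered libraries is a weak check, it called 5: Rbl2, Rb1, Ccnd1, Cdk6 and E2f3, and not Plk1. That fit also called 4 fibroblast markers higher: Col1a1, Col1a2, Col3a1 and Prrx1. In the WT comparison it called 40, with Cdk1 and Cenpa in place of Cdk6 and Rbl1. Groups held 2 or 3 libraries, and each mESC line and MEF culture was sequenced once.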
